A study of Mus musculus with 9 samples.

Results

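The 8 genes described here are those of the muscarinic acetylcholine receptors Chrm1, Chrm2, Chrm3 and Chrm4, of the nicotinic receptor subunits Chrna4, Chrna7 and Chrnb2, and of acetylcholinesterase (Ache). They were chosen by name, and all 8 were found among the 37620 genes counted and among the 15069 genes tested. Their levels were read from ribosome-associated RNA of parvalbumin inhibitory neurons (PV INs) in hippocampal CA3/CA2. In PV-Cre; Rpl22HA/HA mice the ribosomal protein Rpl22 carries an HA tag wherever Cre driven from the parvalbumin gene has acted, and an antibody to the tag pulls down those ribosomes with the mRNA on them and with RNA from other cells that comes along. Both groups had this genotype and received a lentivirus in the dentate gyrus (DG) at 2 months of age, with tissue taken 2 weeks later. The virus carried a non-target shRNA in the 5 control samples (shNT) and an shRNA against Ablim3, which is expressed in DG mossy fibers, in the other 4 samples (shRNA). Each sample was a pool of 6 mice, and p-values measure the spread between these pools. The comparison asks which mRNAs of PV INs differ when mossy fiber contacts onto them are increased.

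Acetylcholine reaches hippocampal interneurons mainly from axons of the medial septum and diagonal band. Muscarinic receptors are G protein-coupled: the products of Chrm1 and Chrm3 act through Gq and phospholipase C, and those of Chrm2 and Chrm4 through Gi/o, and the M2 receptor is well known on the terminals of hippocampal basket cells. Nicotinic receptors are ion channels of 5 subunits, either all alpha7 or, most often in brain, alpha4 with beta2, and acetylcholinesterase ends the signal by splitting the transmitter. In all 9 samples mRNAs of all 8 genes were read, at levels per length that spanned an order of magnitude. In the edgeR quasi-likelihood test none of the 8 passed a false discovery rate of 0.05 between shRNA and shNT samples, with values of 0.210 to 0.977. That test called 1.75% of all genes. Another test, limma voom with sample quality weights, called Chrm3 and Chrna7 higher in the shRNA samples, where it called 15.3% of all genes higher.

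Sample depth was between 19680352 and 34578837 reads counted on genes in the shNT samples and between 18281719 and 30421093 in the shRNA samples. Parvalbumin and 8 other PV IN markers were read in every sample, with a summed level of 4521 to 7413 CPM (read counts scaled to library size and normalized by the TMM method) in the shNT samples and 2599 to 6350.5 CPM in the shRNA samples. Ablim3 was targeted in DG, whereas the RNA came from PV INs of CA3/CA2, so these libraries do not check the knockdown, and its level in them was 12.1 to 22.6 CPM in the shNT samples and 13.7 to 21.7 CPM in the shRNA samples. The share of uniquely aligned reads outside annotated exons was 9.76% to 18.6% in the shNT samples and 12.4% to 27.2% in the shRNA samples, and the PV IN markers were lowest in shRNA replicate 4, which had the highest such share. Among the shNT samples replicate 2 was set apart by both measures (18.6% outside exons against 9.76% to 11.3%). Among all 15069 genes tested, 262 were called higher and 2 called lower in the shRNA samples, which needed a false discovery rate (FDR) under 0.05 in the edgeR quasi-likelihood test (Benjamini-Hochberg) and at least 1.5-fold.

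Sequences before the starts of 5 of the genes are given as examples from the 2 sets into which the 8 genes fell across all 9 samples, described further on. For each, the 250 bases upstream of the start in RefSeq annotation (GRCm38.p6, 1 entry per gene) are written in the direction of the gene, and capitals mark GGGCGG, the GC box bound by Sp1-type factors, or CACGTG, an E-box, read on either strand.
Chrm2 promoter, chr6:36387834-36388083, plus strand: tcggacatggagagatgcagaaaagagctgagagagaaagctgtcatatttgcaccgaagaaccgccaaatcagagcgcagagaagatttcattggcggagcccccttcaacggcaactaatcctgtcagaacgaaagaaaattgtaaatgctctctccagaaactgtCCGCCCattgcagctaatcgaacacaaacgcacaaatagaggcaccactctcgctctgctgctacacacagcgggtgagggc
Chrm4 promoter, chr2:91921939-91922188, plus strand: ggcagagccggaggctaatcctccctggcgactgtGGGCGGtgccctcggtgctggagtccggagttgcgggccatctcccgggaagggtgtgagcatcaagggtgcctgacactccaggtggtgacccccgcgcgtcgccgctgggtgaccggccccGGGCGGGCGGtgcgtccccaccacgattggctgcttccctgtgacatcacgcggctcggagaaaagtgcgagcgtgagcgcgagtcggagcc
Chrnb2 promoter, chr3:89764633-89764882, minus strand: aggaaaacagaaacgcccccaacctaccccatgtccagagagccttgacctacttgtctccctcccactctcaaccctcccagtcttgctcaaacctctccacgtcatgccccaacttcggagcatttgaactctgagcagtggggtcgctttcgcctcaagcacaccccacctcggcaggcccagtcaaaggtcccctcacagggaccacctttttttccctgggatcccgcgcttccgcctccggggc
Chrm3 promoter, chr13:10360804-10361053, minus strand: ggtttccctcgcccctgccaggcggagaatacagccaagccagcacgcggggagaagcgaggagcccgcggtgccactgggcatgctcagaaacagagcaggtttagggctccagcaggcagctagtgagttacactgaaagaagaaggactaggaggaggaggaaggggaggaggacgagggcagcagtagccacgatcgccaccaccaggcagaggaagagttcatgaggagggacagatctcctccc
Chrna7 promoter, chr7:63212527-63212776, minus strand: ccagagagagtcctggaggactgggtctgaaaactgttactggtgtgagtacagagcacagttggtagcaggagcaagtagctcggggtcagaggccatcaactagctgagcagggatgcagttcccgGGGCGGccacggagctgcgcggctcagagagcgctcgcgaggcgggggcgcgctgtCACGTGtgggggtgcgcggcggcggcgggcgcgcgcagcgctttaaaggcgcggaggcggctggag
Chrm2, Chrm4 and Chrnb2 belonged to 1 set and Chrm3 and Chrna7 to the other. GGGCGG, which 32.7% of the 32851 promoters of the same length hold, was present in Chrm2, in Chrm4 at 3 places of which a pair overlap, and in Chrna7. They were not found in Chrnb2 or Chrm3. Of the remaining members, Chrna4 held them at 3 places and Ache at 4 (promoters not shown), both of the set of Chrm2, and no promoter entry was found for Chrm1. CACGTG, held by 6.02% of promoters, was found once in Chrna7 and once in Ache, so neither motif was particular to a set. Neither TATAAA (12.4% of promoters) nor TGACGTCA, the cAMP response element (1.55%), was found in any of the 7. A match describes the letters of the window and is not a measurement of binding.

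Levels were compared between genes per length of exon. Chrm1 had a mean of 14.6 CPM per kb over the 9 samples, Chrnb2 14.0 CPM per kb and Ache 13.5 CPM per kb. Chrm2 followed at 10.4 CPM per kb. The other genes were lower by several fold, with Chrm4 at 2.44 CPM per kb, Chrna7 at 1.95 CPM per kb, Chrna4 at 1.28 CPM per kb and Chrm3 at 1.19 CPM per kb. In the immunoprecipitated RNA, which also holds RNA of other cells, Chrm1 and Chrm2 were the muscarinic members with the highest levels, and Chrnb2 was far above Chrna4, the subunit it most often joins.

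**Figure D1:**
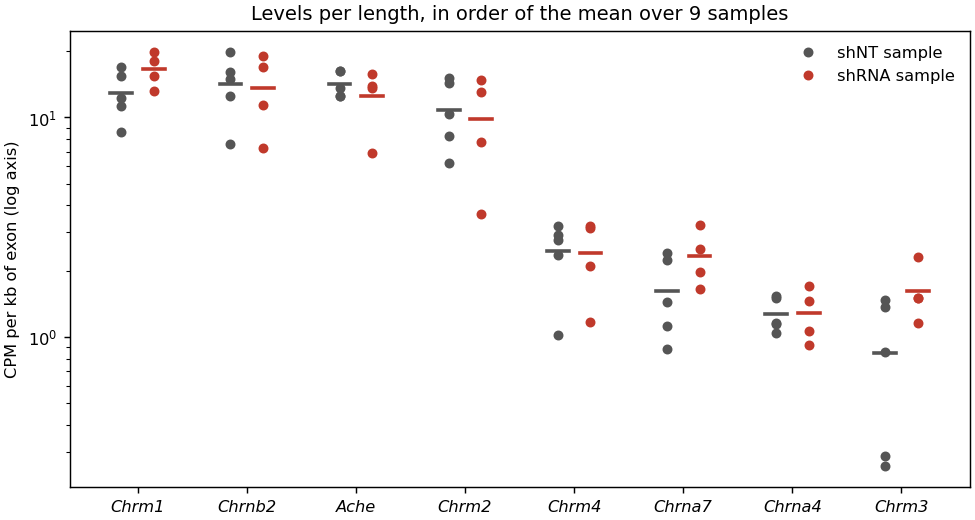
Level of each gene in CPM per kb of exon (log axis) in the 5 shNT and 4 shRNA samples, ordered by the mean over all 9 samples. Points are samples and lines are group means. Chrm1, Chrnb2, Ache and Chrm2 (means of 10.4 to 14.6) lie above Chrm4, Chrna7, Chrna4 and Chrm3 (means of 1.19 to 2.44).

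Of the 7 pairs of neighbours in this order, 3 differed within samples after adjustment (exact two-sided sign-flip permutation test of the log2 difference over 9 samples, Benjamini-Hochberg adjusted over the 7 pairs). Ache exceeded Chrm2 in 9 of 9 samples, by 0.47 ± 0.40 on the log2 scale (SD, exact permutation test, adjusted p = 0.0137). Chrm2 exceeded Chrm4 in 9 of 9 samples, by 2.07 ± 0.31 (SD, exact permutation test, adjusted p = 0.0137). Chrna7 exceeded Chrna4 in 7 of 9 samples, by 0.53 ± 0.43 (SD, exact permutation test, adjusted p = 0.0365). The top 3 genes were not separated: the exact permutation test gave an adjusted p of 0.565 for Chrm1 and Chrnb2 and of 0.969 for Chrnb2 and Ache. Chrm4 and Chrna7 (adjusted p = 0.232, exact permutation test) and Chrna4 and Chrm3 (adjusted p = 0.520, exact permutation test) likewise could not be ordered. Per length of the longest annotated transcript, Ache came first at 16.9 CPM per kb and Chrna7 passed Chrm4 (3.15 and 2.44 CPM per kb).

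Chrm1 encodes the M1 receptor, which excites neurons through Gq. The gene (ENSMUSG00000032773) lies on chromosome 19 from 8738495 to 8758077 in mm9. shNT replicates 1 to 5 read 96.9, 54.1, 107, 76.6 and 70.5 CPM, and shRNA replicates 1 to 4 read 96.9, 113, 124 and 82.7 CPM. All 4 shRNA samples lay above the shNT mean and 2 above every shNT sample, but the groups overlapped, with shNT replicate 2 the lowest of all. Group means of 81.0 ± 21.0 CPM (SD, n = 5) against 104 ± 18.4 CPM (SD, n = 4) gave a log2 fold change of 0.37 with a standard error of 0.20, and the FDR of the edgeR quasi-likelihood test was 0.219. Another annotated gene, 7SK, lies over 5.25% of the exon bases of Chrm1 on the opposite strand, and counting did not use strand.

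Chrm3 encodes the M3 receptor, the other Gq-coupled member. The gene (ENSMUSG00000046159) lies on chromosome 13 from 9876381 to 9878329, and the annotation used here for lengths holds a single exon of 1949 bases for it. Which exons the authors counted is not given in the sources used here. The promoter window shown above for Chrm3 comes from another build and annotation, and whether it adjoins this exon was not checked. If the transcript holds further exons, the level per kb covers only a part of it. shNT replicates 1 to 5 read 2.67, 0.505, 2.88, 1.66 and 0.565 CPM, and shRNA replicates 1 to 4 read 2.26, 2.95, 4.54 and 2.93 CPM. The lowest values were those of shNT replicates 2 and 5, and shRNA replicate 1 lay within the shNT range, so the groups overlapped. It was the least deeply read of the 8, with 11 to 86 reads per sample, and it varied 5.71-fold among the shNT samples. Group means of 1.66 ± 1.12 CPM (SD, n = 5) against 3.17 ± 0.966 CPM (SD, n = 4) gave a log2 fold change of 0.93 with a standard error of 0.50, and the FDR of the edgeR quasi-likelihood test was 0.210.

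Chrm2 encodes the M2 receptor, which lowers transmitter release through Gi/o. The gene (ENSMUSG00000045613) lies on chromosome 6 from 36338084 to 36478414. shNT replicates 1 to 5 read 87.0, 37.4, 91.7, 63.0 and 49.7 CPM, and shRNA replicates 1 to 4 read 46.7, 89.9, 79.1 and 21.96 CPM. The shRNA samples held both a value near the highest and the lowest of all 9, that of replicate 4. Group means of 65.8 ± 23.4 CPM (SD, n = 5) against 59.4 ± 31.0 CPM (SD, n = 4) gave a log2 fold change of -0.15 with a standard error of 0.38, and the FDR of the edgeR quasi-likelihood test was 0.800. Without shRNA replicate 4 the log2 fold change of Chrm2 was 0.13 and stayed far from the threshold.

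Chrm4 encodes the M4 receptor, also coupled to Gi/o. The gene (ENSMUSG00000040495) lies on chromosome 2 from 91762346 to 91769986. shNT replicates 1 to 5 read 7.68, 2.85, 8.88, 8.07 and 6.56 CPM, and shRNA replicates 1 to 4 read 5.82, 8.92, 8.70 and 3.25 CPM. The low values came from 1 sample of each group, shNT replicate 2 and shRNA replicate 4, and the other samples intermingled. Group means of 6.81 ± 2.37 CPM (SD, n = 5) against 6.67 ± 2.69 CPM (SD, n = 4) gave a log2 fold change of -0.031 with a standard error of 0.36, and the FDR of the edgeR quasi-likelihood test was 0.959. Exons of antisense neighbours lie over 0.903% of the exon bases of Chrm4 (Mdk) and 2.35% of those of Chrm2 (9330158H04Rik).

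**Figure D2:**
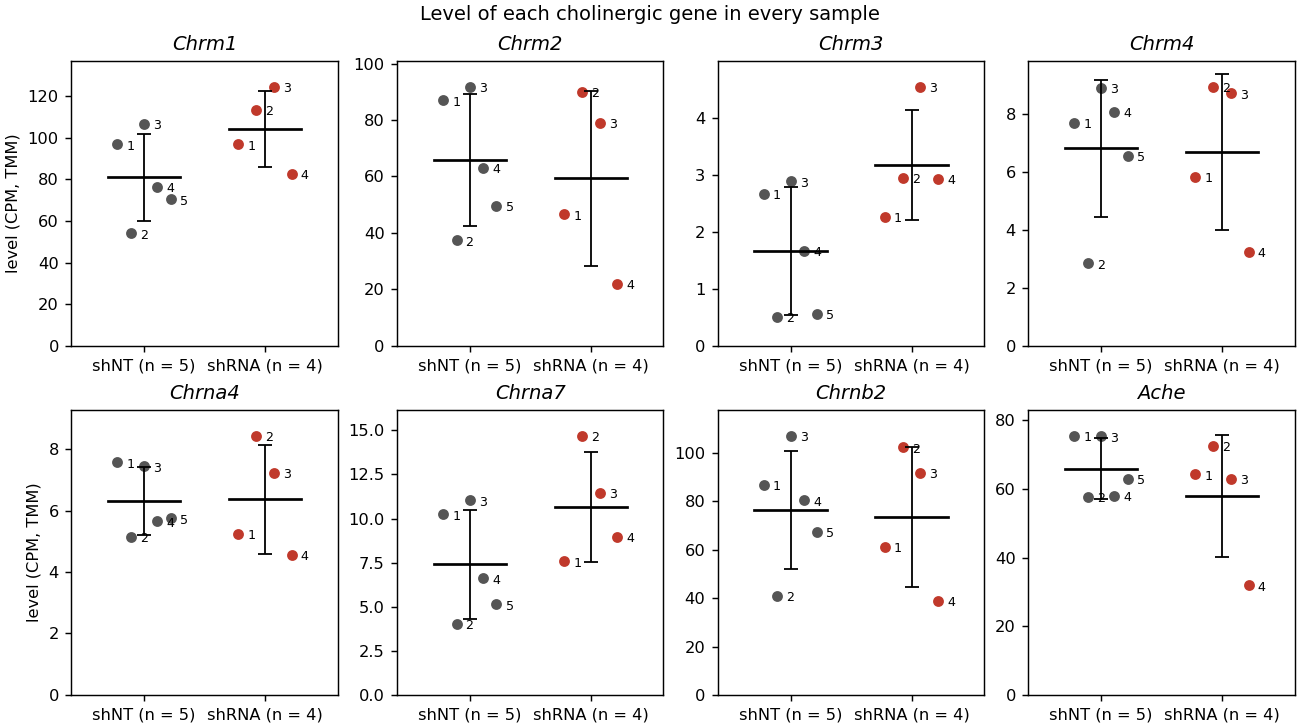
Level in CPM (TMM-normalized, linear axes from 0) of the 8 genes in every shNT (n = 5) and shRNA (n = 4) sample. Points carry the replicate number, the wide line is the group mean and the bar the SD. The groups overlap for all 8 genes, and shNT replicate 2 or shRNA replicate 4 is the lowest point in each panel.

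Chrnb2 encodes the beta2 subunit, which forms channels only together with an alpha subunit. The gene (ENSMUSG00000027950) lies on chromosome 3 from 89557370 to 89568554. shNT replicates 1 to 5 read 86.8, 40.9, 107, 80.4 and 67.4 CPM, and shRNA replicates 1 to 4 read 61.2, 102, 91.8 and 38.9 CPM. The order of the samples was close to that of Chrm4, with shNT replicate 2 and shRNA replicate 4 low. Group means of 76.5 ± 24.5 CPM (SD, n = 5) against 73.6 ± 28.9 CPM (SD, n = 4) gave a log2 fold change of -0.056 with a standard error of 0.31, and the FDR of the edgeR quasi-likelihood test was 0.910.

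Chrna4 encodes the alpha4 subunit, the usual partner of beta2. The gene (ENSMUSG00000027577) lies on chromosome 2 from 180753085 to 180778251. shNT replicates 1 to 5 read 7.57, 5.14, 7.44, 5.65 and 5.74 CPM, and shRNA replicates 1 to 4 read 5.25, 8.42, 7.23 and 4.56 CPM. It varied little within groups, 1.47-fold among the shNT and 1.85-fold among the shRNA samples. Group means of 6.31 ± 1.12 CPM (SD, n = 5) against 6.36 ± 1.78 CPM (SD, n = 4) gave a log2 fold change of 0.011 with a standard error of 0.23, and the FDR of the edgeR quasi-likelihood test was 0.977. Per kb and within a sample, Chrna4 was 0.0759 to 0.137 of Chrnb2 in the shNT samples and 0.0858 to 0.128 of it in the shRNA samples.

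Chrna7 encodes the alpha7 subunit, which forms channels on its own that pass calcium. The gene (ENSMUSG00000030525) lies on chromosome 7 from 70243578 to 70357455. shNT replicates 1 to 5 read 10.2, 4.04, 11.05, 6.61 and 5.14 CPM, and shRNA replicates 1 to 4 read 7.58, 14.7, 11.4 and 8.98 CPM. All 4 shRNA samples lay above the shNT mean and 2 above every shNT sample, and the groups overlapped. Group means of 7.42 ± 3.10 CPM (SD, n = 5) against 10.7 ± 3.11 CPM (SD, n = 4) gave a log2 fold change of 0.52 with a standard error of 0.31, and the FDR of the edgeR quasi-likelihood test was 0.250.

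Ache encodes the enzyme that splits acetylcholine. The gene (ENSMUSG00000023328) lies on chromosome 5 from 137728747 to 137735694. shNT replicates 1 to 5 read 75.4, 57.6, 75.4, 58.1 and 63.0 CPM, and shRNA replicates 1 to 4 read 64.3, 72.5, 63.0 and 31.9 CPM. The other 8 samples lay within 57.6 to 75.4 CPM, and shRNA replicate 4 lay below them all. Group means of 65.9 ± 8.91 CPM (SD, n = 5) against 57.9 ± 17.9 CPM (SD, n = 4) gave a log2 fold change of -0.19 with a standard error of 0.22, and the FDR of the edgeR quasi-likelihood test was 0.550. Without shRNA replicate 4 the log2 fold change of Ache was 0.0024.

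Of the 8 genes 0 were called, against 1.75% of all genes tested (1.74% higher and 0.0133% lower in the shRNA samples), and the FDR values of the edgeR quasi-likelihood test ran from 0.210 to 0.977. At an unadjusted p under 0.05 there were also 0 of the 8, where 34.1% of all genes stood. The groups overlapped for all 8, where 15.6% of all genes had groups that did not overlap (8.97% higher and 6.68% lower in the shRNA samples). The log2 fold change was above 0 for 4 of the 8 and below 0 for 4, with a median of -0.01, where 58.0% of all genes were above 0 with a median of 0.11. DESeq2 and edgeR's likelihood ratio and exact tests also called 0 of the 8. With limma voom and sample quality weights, which lower the weight of samples that stand apart, 2 of the 8 were called, both higher in the shRNA samples: Chrm3 with a log2 fold change of 1.30 (FDR = 0.0221, limma) and Chrna7 with 0.69 (FDR = 0.0328, limma). Under that method 15.3% of all genes were called higher. Chrm1 had a log2 fold change of 0.55 there (FDR = 0.00848, limma), under the 1.5-fold minimum.

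**Figure D3:**
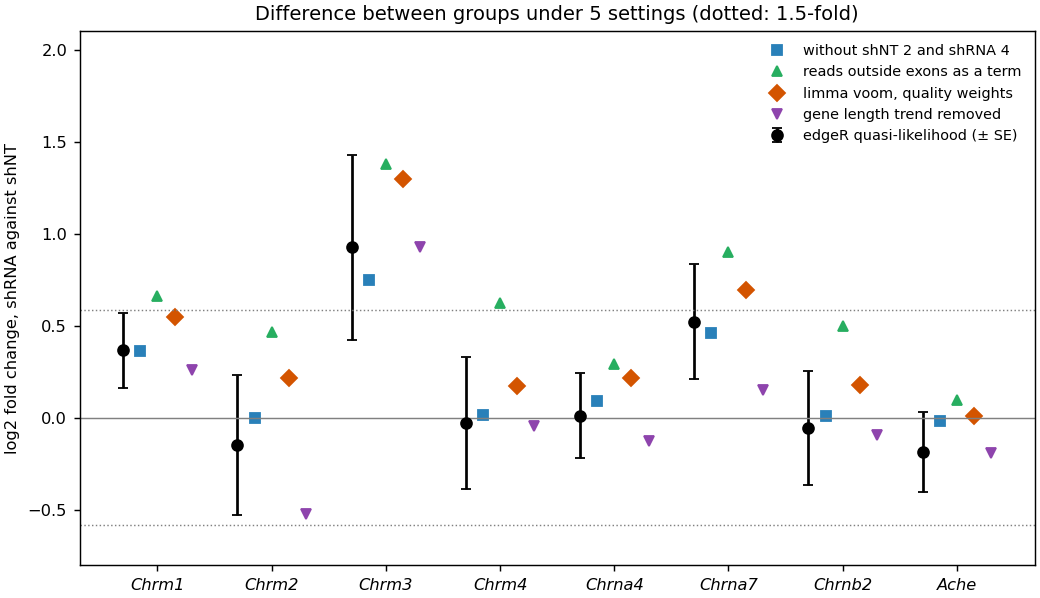
Log2 fold change of shRNA against shNT for the 8 genes under 5 settings. Black points with bars are the edgeR quasi-likelihood estimate ± its standard error, and the other symbols leave out shNT replicate 2 and shRNA replicate 4, add to the model the share of reads outside exons, use limma voom, or remove the trend with gene length. Chrm1, Chrm3 and Chrna7 are above 0 in all 5, and the other genes lie on both sides of 0.

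Across the 9 samples the 8 genes fell into 2 sets, seen in the data and therefore described without a test. The correlations use log2 levels of samples that share a normalization. Chrm2, Chrm4, Chrna4, Chrnb2 and Ache varied together, with pairwise Pearson r between 0.70 and 0.97 over 10 pairs, highest for Chrm4 and Chrnb2. Chrm1, Chrm3 and Chrna7 varied together with r between 0.90 and 0.93 over 3 pairs. Between the sets r ran from 0.02 to 0.73 over 15 pairs, and it was lowest for Chrm3 and Ache. After subtraction of each group's mean the range between the sets was 0.29 to 0.92, so the sets were less distinct within groups. Without shNT replicate 2 and shRNA replicate 4 it was 0.38 to 0.88 over the 7 remaining samples, against 0.34 to 0.96 within the first set and 0.86 to 0.92 within the second, so the separation rests on these 2 samples.

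Within-sample ratios of members do not depend on the scaling of samples, and 7 were examined. Per kb, Chrm4 was 0.135 to 0.195 of Chrnb2 in the shNT samples and 0.162 to 0.185 of it in the shRNA samples, with a coefficient of variation of 10.6% over all 9. The other ratios within the first set varied by 15.3% (Chrm2 to Chrnb2), 20.9% (Chrm4 to Chrm2) and 21.9% (Chrna4 to Chrnb2), that of Chrna7 to Chrm1 in the second set by 19.8%, and those across the sets by 37.5% (Chrna7 to Chrnb2) and 50.2% (Chrm1 to Chrm2). The sets were drawn from correlations over these same samples, so steadier ratios within them follow from that choice and are no separate evidence for them. Across the sets, Chrna7 was 0.140, 0.117, 0.122, 0.0973 and 0.0904 of Chrnb2 in shNT replicates 1 to 5 and 0.146, 0.170, 0.148 and 0.273 of it in shRNA replicates 1 to 4. Here each shRNA sample lay above each shNT sample, by little for shRNA replicate 1 and most for replicate 4. It was the only one of the 7 ratios without overlap. Without shNT replicate 2 and shRNA replicate 4 the ranges were 0.0904 to 0.140 and 0.146 to 0.170. Leaving out samples cannot create an overlap, so this is no further support. How often ratios of other genes lack overlap was not computed. Chrm1 exceeded Chrm2 1.07- to 1.40-fold per kb in the shNT samples and 1.22- to 3.63-fold in the shRNA samples, where the highest value was again that of replicate 4 and the next was 2.00-fold.

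The share of reads outside exons was set beside the levels of the 8 genes. The mean share was 12.1% ± 3.67 (SD, n = 5) in the shNT samples and 18.0% ± 7.07 (SD, n = 4) in the shRNA samples (p = 0.111 in an exact two-sided permutation test). Over the 9 samples the log2 level of Chrm2 had a Pearson r of -0.88 with this share (exact permutation test, adjusted p = 0.0183 over 9 relations). The r was -0.85 for Chrnb2 (exact permutation test, adjusted p = 0.0183), -0.82 for Chrm4 (0.0280), -0.82 for Ache (0.0317) and -0.73 for Chrna4 (0.0317). Spearman's rho for these 5 genes lay between -0.73 and -0.52, and no exact permutation test of rho passed after adjustment (adjusted p of 0.130 to 0.243). Without shRNA replicates 4 and 1, the samples farthest from the median share, r was -0.69 for Chrm2, -0.81 for Chrnb2, -0.89 for Chrm4, -0.47 for Ache and -0.44 for Chrna4. Within the 6 samples whose names share a prefix, r for the 5 genes lay between -0.94 and -0.77, and the other prefix holds too few samples for a value.

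**Figure D4:**
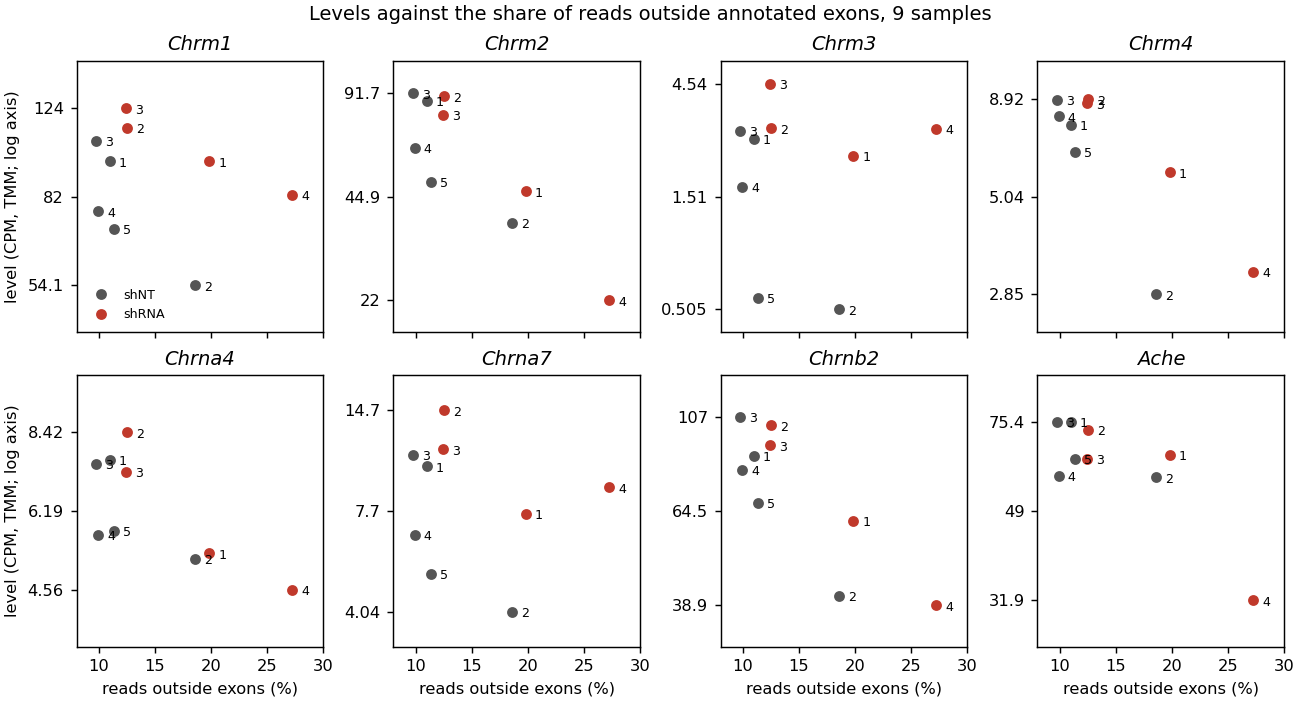
Level of each gene in CPM (log axis, ticks at the lowest, middle and highest value) against the share of reads outside annotated exons (percent) in the 5 shNT and 4 shRNA samples, numbered by replicate. Chrm2, Chrm4, Chrna4, Chrnb2 and Ache fall as the share rises (r of -0.88 to -0.73), whereas for Chrm1, Chrm3 and Chrna7 r is -0.28, -0.01 and -0.19.

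For Chrm1, Chrm3 and Chrna7 r with the share of reads outside exons was -0.28, -0.01 and -0.19 (exact permutation tests, adjusted p of 0.604, 0.983 and 0.710). Spearman's rho was -0.08, 0.08 and -0.13 for these genes (exact permutation tests, adjusted p = 0.843 for each). Without shRNA replicates 4 and 1 their r was -0.56, -0.52 and -0.51, and within the 6 samples of 1 name prefix it was -0.60, -0.63 and -0.75, so the contrast with the first set rests on few samples. After subtraction of group means all 8 genes had an r below 0, from -0.95 to -0.81 in the first set and -0.78 for Chrm1, -0.63 for Chrna7 and -0.47 for Chrm3. Without shNT replicate 2 and shRNA replicate 4, r lay between -0.70 and -0.16 in the first set and was 0.16 for Chrm1, 0.10 for Chrm3 and -0.08 for Chrna7. The mean log2 level of the 9 PV IN markers itself had an r of -0.97 (exact permutation test, adjusted p = 0.00253) and a rho of -0.87 (exact permutation test, adjusted p = 0.0406) with that share. With that share added to the edgeR model, the log2 fold change was above 0 for all 8 genes, from 0.094 for Ache to 1.38 for Chrm3, and 0 of the 8 were called (FDR from 0.0931 to 0.731, edgeR quasi-likelihood test). That fit called 0 of all 15069 genes, so the absence of calls is not particular to the members. The part of the share of reads outside exons in the levels was not tested beyond this term.

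Set against the mean of the 9 PV IN markers in the same sample, which changes the question from a share of all RNA to a level per PV IN marker, the 8 genes were on average higher in the shRNA samples. The marker mean itself was -0.39, -0.03, -0.20 and -1.30 in shRNA replicates 1 to 4, with the shNT mean at 0. A gene of unchanged level therefore rises on this scale, and a value above 0 is not particular to the members. The mean difference was 0.22 for Chrm2, 0.24 for Ache, 0.39 for Chrnb2, 0.44 for Chrm4 and 0.47 for Chrna4 on the log2 scale, and the groups overlapped for these 5. For Chrm1 the shNT samples ran from -0.33 to 0.27 and the shRNA samples from 0.56 to 1.37 on the same scale, without overlap. For Chrm3 the ranges were -1.29 to 0.95 and 1.13 to 2.40, also without overlap. For Chrna7 they were -0.59 to 0.54 and 0.52 to 1.67, and a single pair of samples overlapped. Without shNT replicate 2 and shRNA replicate 4 the shRNA samples ran from 0.56 to 0.86 for Chrm1 and from 1.13 to 1.92 for Chrm3. Leaving out samples cannot create an overlap for these genes, so this is no further support. For the other 6 the groups overlapped. Of all genes tested, 19.8% lay without overlap above the shNT samples on this scale and 0% below them, so 2 of 8 is near the background. In bulk samples fewer cells of a type and less RNA per cell cannot be told apart.

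**Figure D5:**
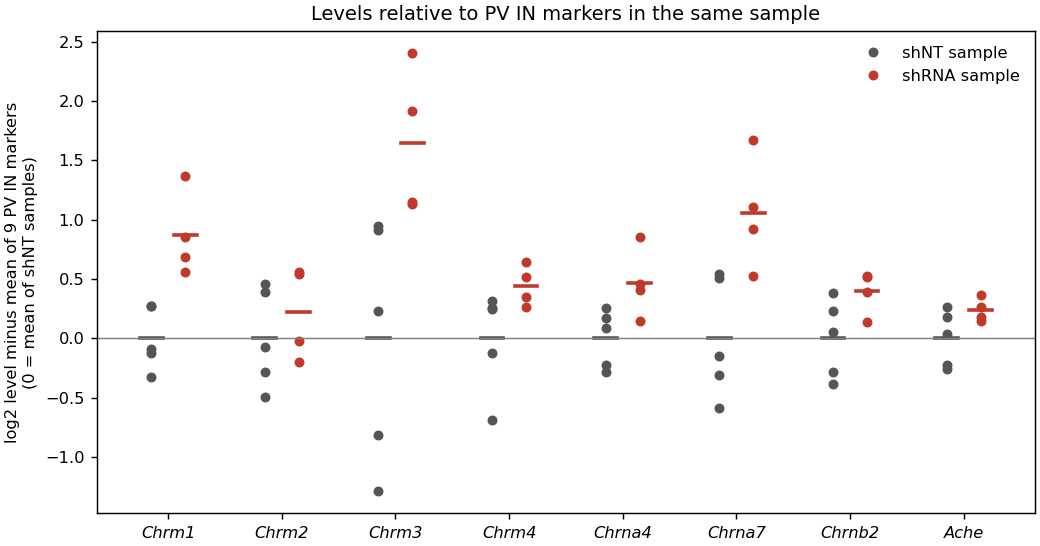
Log2 level of each gene minus the mean log2 level of 9 PV IN markers in the same sample, with the mean of the shNT samples set to 0. Points are samples (5 shNT, 4 shRNA) and lines group means. The groups do not overlap for Chrm1 and Chrm3, and for Chrna7 1 shNT sample (0.54) exceeds the lowest shRNA sample (0.52).

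Marker lists of the cell types in the tissue were summed in both groups, and their part in the levels of the 8 genes was not tested. For comparison, 58% of all genes tested had a log2 fold change above 0, and 1.75% were called. All 9 PV IN markers had a log2 fold change below 0 (0 called), and all 8 markers of CA3/CA2 pyramidal neurons had one above 0, with 1 called (Grik4, 1.17, FDR = 0.0403, edgeR quasi-likelihood test). The summed pyramidal level was 586 to 1457 CPM in the shNT samples and 1522 to 1909 CPM in the shRNA samples. All 6 astrocyte markers were above 0 (0 called), with a summed level of 464 to 887 CPM in the shNT samples and 772 to 990.1 CPM in shRNA replicates 1 to 3 against 4187 CPM in replicate 4. All 5 oligodendrocyte markers were above 0 (0 called, 738 to 2319 and 1402 to 2957 CPM), as were both oligodendrocyte precursor markers, of which Pdgfra was called (7.999 to 13.6 and 16.2 to 31.3 CPM). These glial lists were highest in shRNA replicate 4. Of 7 markers of other interneurons 4 were above 0 and Reln was called (452 to 788 and 266 to 603 CPM). Of 5 markers of DG granule cells 4 were above 0 (0 called, 89.4 to 146 and 133 to 144 CPM), and of 4 microglial markers 3 (0 called, 24.1 to 54.1 and 51.9 to 61.8 CPM). All 4 endothelial markers were above 0 (0 called), but only shRNA replicate 4 was high. Their summed level was 45.6 to 151 CPM in the shNT samples, 26.6 to 66.3 CPM in shRNA replicates 1 to 3 and 405 CPM in replicate 4. Their mean log2 level was -0.37, -1.64, -0.61 and 2.29 in shRNA replicates 1 to 4, with the shNT mean at 0. The markers of cholinergic neurons, Chat and Slc5a7, were at or near 0 in all samples, with a summed level of at most 0.949 CPM. The calls were lost in 11 of 27 alternative fits for Grik4 and in 12 of 27 for Pdgfra and for Reln. Most of these fits called 0 of all genes, so such losses are not particular to the 3 genes. Grik4, Pdgfra and Reln are named because they were the called genes of their lists, a choice made after their values were seen.

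Other cholinergic genes were taken from lists by role. Of 14 further receptor subunits 6 passed the filter on low counts and 0 of them were called by the edgeR quasi-likelihood test, against 1.75% of all genes. Their median log2 fold change was 0.27. Of these, Chrm5 and Chrna1 passed the filter only through shRNA replicate 4, and Chrna3 only through shRNA replicate 3. The filter used CPM by library size, before TMM scaling. Genes that enter only through an shRNA sample are selected toward high shRNA values, so the median and the values of these genes are not free of that choice. Chrm5, which encodes the Gq-coupled M5 receptor, had 0.101 to 0.284 CPM in the shNT samples and 0.399 to 0.959 CPM in the shRNA samples, for a log2 fold change of 1.85 (edgeR quasi-likelihood FDR of 0.0589) on 2 to 27 reads per sample. It was called in 4 of 23 alternative fits, among them the likelihood ratio test (FDR = 0.00614), the exact test of edgeR (FDR = 0.00796) and limma voom (FDR = 0.00506). Its groups did not overlap, as was so for 15.6% of all genes, and its lowest count, 2 reads, lies under the 3 reads that a count of 0 allows. Chrna1, the muscle-type alpha subunit, had a log2 fold change of 0.54 (FDR = 0.317) and Chrna5, an accessory subunit of alpha4beta2 channels, one of 0.41 (FDR = 0.465, both by edgeR's quasi-likelihood method). Chrnd and Chrng, subunits of the muscle receptor, had 0 reads in all 9 samples, which allows up to 0.164 CPM in the shallowest sample.

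Among 6 genes of acetylcholine handling 3 passed the filter and 0 were called by the edgeR quasi-likelihood test, against 1.75% of all genes. Slc44a1, a choline transporter, had 27.9 to 45.4 CPM in the shNT samples and 47.9 to 59.1 CPM in the shRNA samples. Its groups did not overlap, as was so for 15.6% of all genes. Its log2 fold change was 0.53 (edgeR quasi-likelihood FDR of 0.0704), and of 27 alternative fits limma voom called it (FDR = 0.00389). Bche, butyrylcholinesterase, had a log2 fold change of 1.39 (edgeR quasi-likelihood FDR of 0.0889), with levels of 0.597 to 1.53 CPM in the shNT samples. The value of 5.59 CPM was that of shRNA replicate 4, whereas replicates 1 to 3, at 1.36, 1.42 and 1.37 CPM, lay within the shNT range. Without that sample the log2 fold change of Bche was 0.58 (edgeR quasi-likelihood FDR of 0.298), and with it the gene was called in 3 of 27 alternative fits (likelihood ratio test, exact test of edgeR and DESeq2, FDR of 0.0463, 0.0481 and 0.0467). Colq, the collagen tail that anchors acetylcholinesterase, had one of -0.43 (edgeR quasi-likelihood FDR of 0.254). Prima1, the membrane anchor of brain acetylcholinesterase, stayed under the filter at 1 to 17 reads per sample, in the presence of 707 to 2197 reads of Ache.

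Receptor chaperones and Ly6-type modulators, set the assembly and the sensitivity of nicotinic receptors. Of 9 genes 8 passed the filter and 0 were called by the edgeR quasi-likelihood test, against 1.75% of all genes. Of the 8, 7 had a log2 fold change below 0, and the median was -0.33. Lynx1, a membrane-bound brake on nicotinic receptors chosen after its values were seen, had the highest level per length of this list at 115 CPM per kb and a log2 fold change of -0.066 (edgeR quasi-likelihood FDR of 0.873). Tmem35, the chaperone of alpha7 receptors also called NACHO, had 86.8 to 149 CPM in the shNT samples and 29.1 to 85.0 CPM in the shRNA samples, without overlap, a log2 fold change of -0.71 (edgeR quasi-likelihood FDR of 0.111). Lypd6b lay lower in all shRNA samples, with a log2 fold change of -0.53 (FDR = 0.0898), and Lypd1 higher in all, with 0.81 (FDR = 0.0531, both by edgeR's quasi-likelihood method). Groups without overlap, as for Tmem35, Lypd6b and Lypd1, were found for 15.6% of all genes. Lypd1 was called in 7 of 27 alternative fits, among them the likelihood ratio test (FDR = 0.00927), the exact test of edgeR (FDR = 0.00986), DESeq2 (FDR = 0.0078) and limma voom (FDR = 0.00218). Without shNT replicate 2 and shRNA replicate 4 the log2 fold change of Tmem35 was -0.49.

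Downstream of the muscarinic receptors, 12 of 12 genes of G proteins and phospholipase C passed the filter. The edgeR quasi-likelihood test called 0 of them, against 1.75% of all genes, and their median log2 fold change was 0.04. Plcb3 had a log2 fold change of 1.24 (FDR = 0.0715), Plcb1, the phospholipase C best known behind M1 receptors in forebrain, one of 0.60 (FDR = 0.0689), and Gnai3 one of 0.42 (FDR = 0.117, all by edgeR's quasi-likelihood method). Plcb3 and Plcb1 were each called in 4 of 27 alternative fits, among them the likelihood ratio and exact tests of edgeR and limma voom. For Plcb3 the highest value, 32.3 CPM, was that of shRNA replicate 4, and replicates 1 to 3 had 8.47, 9.42 and 10.5 CPM beside 4.23 to 8.78 CPM in the shNT samples. Without shRNA replicate 4 its log2 fold change was 0.54 (edgeR quasi-likelihood FDR of 0.171).

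Of 7 channels that muscarinic receptors close or open, 6 passed the filter and 1 was called, against 1.75% of all genes. Kcnq5, a potassium channel subunit of the M-current that Gq-coupled muscarinic receptors suppress, rose: its mean was 16.6 ± 5.93 CPM (SD, n = 5) in the controls and 46.2 ± 9.94 CPM (SD, n = 4) with shRNA, and its log2 fold change was 1.47 with a standard error of 0.26 (edgeR quasi-likelihood FDR of 0.0403). Its shNT samples lay between 9.89 and 24.4 CPM and its shRNA samples between 34.1 and 56.5 CPM, without overlap. The call was lost in 10 of 27 alternative fits, and each of these 10 called 0 of all genes. Among them were those that left out shNT replicate 3, shNT replicate 4, shNT replicate 5, shRNA replicate 1 and shRNA replicate 3 in turn (FDR of 0.0744, 0.155, 0.169, 0.0860 and 0.121, edgeR quasi-likelihood test). The log2 fold change lay between 1.00 and 1.89 over all 27. Kcnq3, another potassium channel subunit of that current, had a log2 fold change of 0.65 (FDR = 0.0972) and Kcnj6, a channel opened through Gi/o, one of 0.68 (FDR = 0.0655, both by edgeR's quasi-likelihood method), each without overlap between the groups, where 15.6% of all genes had none. Kcnj6 was called in 4 and Kcnq3 in 1 of 27 alternative fits.

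Genes whose log2 levels followed each member most closely over the 9 samples were sought among 9495 genes averaging at least 10 CPM, as a description of these samples. For Chrnb2 the closest were Tll1, Prrt3 and Trim62 (r of 0.995 to 0.998), and for Chrm2 6430548M08Rik, Mark1 and Rgs8 (0.989 to 0.994). Chrm4 was closest to Ctps, Dok7 and Exoc3 (0.990 to 0.992) and Ache to Zfp467, Kcnip1 and Scg2 (0.977 to 0.980). Chrna4 had the loosest matches, Vash2, Edil3 and 1600021P15Rik (0.967 to 0.969). In the other set Chrm1 was closest to Add2, Fem1a and Otud7a (0.987 to 0.993), Chrm3 to Crat, Zfp335 and Dcp1a (0.983 to 0.987) and Chrna7 to Wdr11, 2310035C23Rik and 1300001I01Rik (0.987 to 0.990). None of these 24 genes was called by the edgeR quasi-likelihood test.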

How the data were processed

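Ribosome-associated RNA from 5 shNT and 4 shRNA pools of CA3/CA2 tissue was sequenced. Per the study's methods and the submitters' processing notes, reads were mapped by the authors with STAR (transcriptome, mm9) and unique reads summed per gene without strand by HTSeq 0.6.0, and the deposited values are raw counts. The annotation they counted on is not given in the sources used here; GENCODE vM1 of the same build named 37205 of 37620 identifiers and gave positions, exon lengths and overlaps. Software was edgeR 4.0.16, DESeq2 1.42.0 and limma 3.58.1 under R 4.3.3, and scipy 1.17.1 under Python 3.11.15. The 15069 genes that reached 1 CPM in any sample went, after TMM normalization, into edgeR's quasi-likelihood test, group being the only term. Calls needed an FDR under 0.05 and 1.5-fold. A prior count of 2 was added for log2 levels. The common dispersion corresponds to a coefficient of variation of 0.303 between pools. The test was tried on simulated counts first.

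The 8 genes, the other lists, the tests and most alternatives were chosen with earlier results of these data known, and 3 alternatives were added later. From each list of cholinergic genes the called genes and the 3 with the largest absolute log2 fold change were named, and for likeness the 3 genes with the highest r. Lamp5 and Ndnf were matched under older symbols, and Slc18a3 was not analysed here. Promoters were found for 7 of the 8 genes. Intervals were not computed, and a count of 0 was read as up to 3 reads, which covers counting error only.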

Additional observations from a re-analysis of the deposited data

Results flagged for a closer look

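In shNT replicate 2 the share of reads outside exons was 18.6%, whereas the other 4 shNT samples lay between 9.76% and 11.3%, and this sample stood apart by Dixon's criterion at the 95% level. The mean log2 level of the 9 PV IN markers, with the shNT mean at 0, was -0.45 in the same sample and between 0.02 and 0.17 in the others. Both measures belong to 1 library. Of 20 groups of samples examined in this way 2 stood apart, where chance gives about 1. Chrm1, Chrm3, Chrm4 and Chrna7 had their lowest level in this sample. Without shNT replicate 2 the log2 fold change of Chrm3 was 0.70 and that of Chrna7 0.37, and 0 of the 8 genes were called. Of all genes tested in that fit, 481 were called higher and 1 lower.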

How the results depend on the processing

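The 8 genes were recomputed under 27 alternatives. Chrm1, Chrm3 and Chrna7 kept a log2 fold change above 0 in all 27, from 0.19 to 0.66, 0.62 to 1.38 and 0.15 to 0.90. None of the 8 was called except under limma voom, which called 2 (Chrm3 at 1.30 and Chrna7 at 0.69). Several of these fits called 0 of all genes, as given below, so in them the absence of calls is not particular to the members. The other 5 genes changed sign in some fits, and for each the cause was not tested. Under limma voom Chrm2 was 0.22, Chrm4 0.17, Chrnb2 0.18 and Ache 0.0071. With the share of reads outside exons in the model Chrm2 was 0.47, Chrm4 0.63, Chrnb2 0.50 and Ache 0.094. In the larger set of sample names alone Chrm4 was 0.24, Chrnb2 0.10 and Colq 0.017. Chrna4 was -0.032 with DESeq2, -0.030 with DESeq2 size factors, -0.025 without the filter, -0.060 with the set of names as a term and -0.13 with the length trend removed, which moved the median of all genes from 0.11 to -0.07. Without shNT replicate 2 and shRNA replicate 4, Chrm4 was 0.014 and Chrnb2 0.011. When single samples were left out the ranges were -0.42 to 0.13 for Chrm2, -0.24 to 0.19 for Chrm4, -0.16 to 0.13 for Chrna4, -0.26 to 0.15 for Chrnb2 and -0.31 to 0.0024 for Ache.

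Genes called higher and lower numbered 1688 and 542 with the likelihood ratio test, 1657 and 532 with the exact test, 1519 and 844 with DESeq2, 2301 and 618 with limma voom, 501 and 14 without the filter, and 678 and 2 without both samples named above. The lower genes were 6 in the version 4 form of the test, 8 with a filter of 1 CPM in 4 samples, 1 with DESeq2 size factors and 1 with the set of names as a term. Library size only, upper quartile scaling, the length trend, the share of reads outside exons and the larger set of names alone each gave 0 and 0. Left-out samples gave 0 to 1007 higher and 0 to 410 lower genes, with 1007 without shNT replicate 1. Leaving out shNT replicate 3, 4 or 5 or shRNA replicate 1 or 3 gave 0 and 0 each time. The difference in the share of reads outside exons ran from 2.81 to 7.75 percentage points with a sample left out, and its exact permutation p was 0.0286 without shNT replicate 2 (difference 7.505), the smallest that design allows; the sample left out there was the shNT sample with the high share, and leaving out any other sample gave p of 0.0714 to 0.250. The replicate numbers did not pair the samples, since deviations of same-numbered samples from their group means correlated at -0.27, -0.64, 0.49 and -0.18. With the replicate block 29 and 0 genes were called and Chrna4 was -0.044, and 0 of the 8 genes were called. The version 3 form of the quasi-likelihood test is the default of the version used and is the test reported. The version 4 form, the robust form and leaving out both samples were chosen after seeing the data. The order of levels kept 2 or 3 differing neighbours in every fit. The low read number of Chrm3 limits its precision.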
